A study of Mus musculus with 26 samples.

Results

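Tal1, Lyl1, Lmo2, Hhex and Ldb1 encode transcription factors and cofactors of early blood cells, and their signals were followed across 8 progenitor populations. The members were the genes of these symbols, and each was read by 1 probe set annotated to that symbol alone, so that 5 of 18193 genes annotated in this way were used. The samples came from C57/Bl6 mice labelled male and 2 months old, and each of the 26 was hybridised to 1 Affymetrix array. Bone marrow gave MPPFL- (n = 5), MPPFL+, CMP, GMP and CLP (n = 3 each), and thymocytes gave DN1, DN2 and DN3 (n = 3 each). MPP are multipotent progenitors split by FL, read here as the receptor Flt3, CMP and GMP are common myeloid and granulocyte-macrophage progenitors, and CLP are common lymphoid progenitors, whose arrays carry ALP in another label. DN1 to DN3 are successive double-negative thymocyte stages. The labels name no mutation, transgene or treatment in any population. The sorting gates and any pooling of animals are not given in the sources used here, so the tests measure only the spread between these samples.

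Tal1 and Lyl1 are related basic helix-loop-helix proteins that bind DNA paired with E proteins such as the products of Tcf3 and Tcf12. Lmo2 binds no DNA itself and bridges such pairs to Gata factors, while Ldb1 docks on Lmo2 and, by pairing with itself, joins complexes at distant sites. Hhex is a homeodomain protein of early progenitors. Tal1, Lyl1 and Lmo2 are also known as oncogenes that are switched on in T cell acute leukaemia, which makes the point at which normal thymocytes lose them of interest.

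Signals are on a log2 scale with a lowest value of 2.17 that 30.2% to 37.1% of the probe sets took on each array, and a signal within 1 log2 unit of it is called near the floor. A difference is called where the adjusted p is under 0.05, two-sided, by limma with Benjamini-Hochberg adjustment over 45037 probe sets, and only then is a gene said to have risen or fallen. Signals of different genes come from different probes and are not set against each other. Some arrays stood apart. CMP replicate 1 had an array median of 3.05 against 2.74 to 2.95 on the others. The mean poly-A spike-in signal was 2.46 to 2.56 on the DN1 and DN2 arrays and 9.87 to 11.68 on the DN3 arrays, with the lowest of these on DN3 replicate 3. Xist, normally transcribed in female cells to silence an X chromosome, gave 12.21 and 13.59 on DN1 replicates 1 and 3, 12.99 and 6.30 on DN2 replicates 2 and 3, and 4.45 or less elsewhere.

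The thymocyte labels were set against T lineage markers. Of 4 measured markers (Bcl11b, Cd3e, Ptcra and Il2ra), 0 had a mean more than 2 log2 units above the lowest value in CLP, 2 did in DN1 and DN2, and 4 did in DN3. The 5 genes are also active in vessel lining, red cell and platelet precursors. Endothelial markers (Cdh5, Kdr, Emcn and Tek) had 0 of 4 means above that level in DN1, DN2 and DN3, with summed log2 signals of 8.96 to 9.91 on these arrays. Erythroid markers (Gata1, Klf1, Epor and Hba-a1) reached it for 1, 0 and 1 of 4 in DN1, DN2 and DN3, and megakaryocyte markers (Pf4, Gp1bb and Itga2b) for 1, 1 and 0 of 3. The gene reaching it was Gata1 (4.20 in DN1 and 5.98 in DN3) or Itga2b (5.58 in DN1 and 7.59 in DN2). In CLP their means were 3.78 and 3.53, not above that level. Which cells gave these signals was not tested. Granulocyte-macrophage markers had 4, 3 and 1 of 4 means above that level in DN1, DN2 and DN3. Their summed signals were 35.37 to 36.79, 24.50 to 26.23 and 13.73 to 18.37. Of these, Mpo had means of 13.59, 11.31 and 3.82 and Csf1r of 12.43, 5.15 and 2.84. Csf3r stayed at 5.69, 5.68 and 5.69, and Elane was low at 4.23, 3.02 and 3.04. Mast cell markers (Cpa3, Ms4a2 and Mcpt8) had 2, 2 and 1 of 3 above it, with sums of 18.52 to 21.87, 20.84 to 22.41 and 13.47 to 15.25. Cpa3 made up most of these sums, with means of 11.21, 13.24 and 9.61. Mcpt8 was at 6.28, 5.60 and 2.29, and Ms4a2 was low at 3.09, 2.72 and 2.27.

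Tal1, Lyl1, Lmo2 and Hhex were all present in the earliest thymocytes and all fell steeply between DN2 and DN3, while Ldb1 rose. By the test Lmo2 alone of the 5 also fell between DN1 and DN2. The DN2 arrays of Tal1 and Hhex also lay below all their DN1 arrays, without a call in the fit of all populations. Of the 5 genes, 2 fell from CLP to DN1, where 13.0% of all probe sets were called lower and 10.2% higher. From DN1 to DN2 1 of 5 fell, against 2.74% of all probe sets called lower and 2.74% called higher. From DN2 to DN3 4 of 5 fell and 1 rose, against 11.3% of all probe sets lower and 12.6% higher. Over the whole passage from DN1 to DN3 the same split of 4 lower and 1 higher was seen, against 11.2% lower and 12.6% higher. From CLP to DN3 4 fell and 0 rose, against 10.9% lower and 10.4% higher. These shares include dim probe sets, and all were larger without them. Among probe sets that were not dim, 49% were called in either direction from CLP to DN1, with 3 of the 5 genes. A similar share was called from DN2 to DN3, and 11.6% were called from DN1 to DN2. Whether the 5 genes were called more often than such probe sets was not tested. In bulk samples such as these, fewer cells that hold a transcript and less transcript per cell cannot be told apart. The sums of granulocyte-macrophage and mast cell markers were also lower in DN3 than in DN2, and their part in the falls of the 4 genes was not tested. Spike-in signal and population cannot be told apart from DN2 to DN3, nor in the comparisons of DN3 with DN1 and CLP. The same holds from CLP (3.98 to 4.38) to DN1 (2.49 to 2.56), which also differ in tissue.

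**Figure D1:**
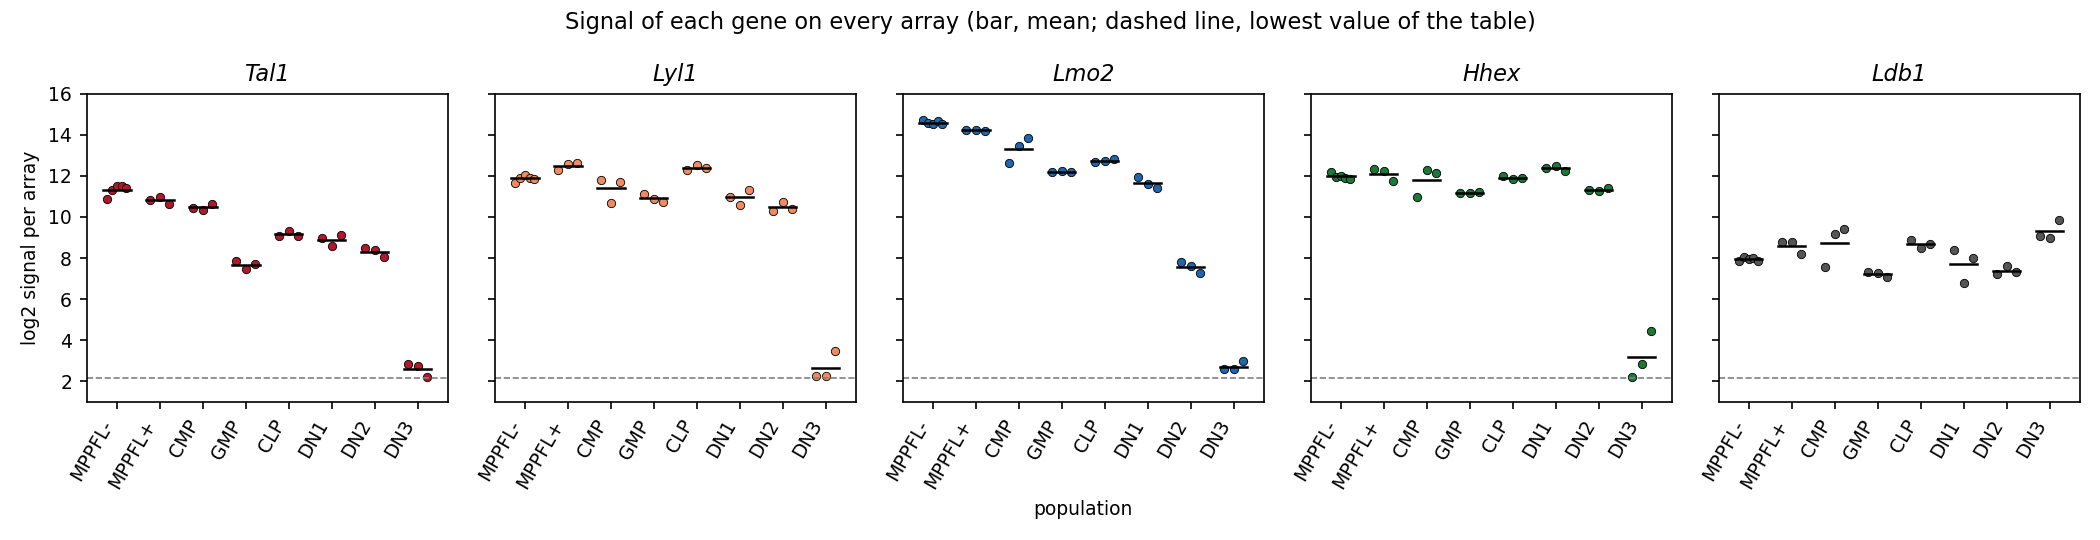
Log2 signal (y axis) of Tal1, Lyl1, Lmo2, Hhex and Ldb1 on every array of the 8 populations (x axis), with a bar at each mean and a dashed line at the lowest value, 2.17. The DN3 arrays of Tal1, Lyl1, Lmo2 and Hhex lie between 2.20 and 4.47, below all other arrays of the same gene, and those of Ldb1 between 8.96 and 9.87.

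Tal1, the founding leukaemia gene of this group, showed no called difference on entry to the thymus. It was at 9.09, 9.31 and 9.07 on the CLP arrays, 8.95, 8.58 and 9.13 on DN1, 8.47, 8.37 and 8.05 on DN2, and 2.85, 2.73 and 2.20 on DN3. CLP and DN1 overlapped, the DN2 arrays lay below all DN1 arrays, and all DN3 arrays were near the floor. The difference of DN1 from CLP was -0.27 (SE 0.19, adjusted p = 0.396 by limma) and that of DN2 from DN1 was -0.59 (SE 0.19, adjusted p = 0.0759), which passed without DN1 replicate 2 (-0.75, adjusted p = 0.0316). From DN2 to DN3 Tal1 fell by 5.70 (SE 0.19, adjusted p = 1.92e-14), which is at least 52-fold since the lower value is near the floor.

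Lyl1, whose protein closely resembles Tal1 in its DNA-binding part, fell from CLP to DN1 and again from DN2 to DN3. Its signal was 12.30, 12.51 and 12.37 on the CLP arrays, 10.96, 10.58 and 11.33 on DN1, 10.27, 10.72 and 10.40 on DN2, and 2.25, 2.25 and 3.49 on DN3. All DN1 arrays lay below all CLP arrays, DN1 and DN2 overlapped, and 2 of 3 DN3 arrays were near the floor, with replicate 3 above it. Lyl1 fell by 1.44 from CLP to DN1 (SE 0.30, adjusted p = 0.00122 by limma). DN2 differed from DN1 by -0.50 (95% interval -1.12 to 0.13, adjusted p = 0.44). From DN2 to DN3 Lyl1 fell by 7.80 (SE 0.30, adjusted p = 2.17e-13), and it fell by 8.21 without DN3 replicate 3.

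Lmo2, the bridging subunit, fell at every step from CLP onward. It was at 12.65, 12.70 and 12.81 on the CLP arrays, 11.93, 11.61 and 11.40 on DN1, 7.82, 7.61 and 7.28 on DN2, and 2.59, 2.58 and 3.00 on DN3. The 4 populations did not overlap at any step, and all DN3 arrays were near the floor. Lmo2 fell by 1.07 on entry to DN1 (SE 0.21, adjusted p = 0.000824 by limma), by 4.08 from DN1 to DN2 (adjusted p = 2.61e-10) and by 4.85 from DN2 to DN3 (adjusted p = 2.05e-12). These last falls are 16.9-fold and, against DN3 near the floor, at least 28.8-fold.

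Hhex, the homeodomain member, showed no called difference on entry to the thymus in the fit of all populations. In that fit it fell, by the test, only at the last step. The CLP arrays were at 12.00, 11.83 and 11.87, the DN1 arrays at 12.39, 12.47 and 12.25, the DN2 arrays at 11.31, 11.25 and 11.39, and the DN3 arrays at 2.22, 2.87 and 4.47. DN1 lay above CLP on every array and DN2 below, yet neither step passed in the fit, whose SE of 0.38 pools all populations, with SDs of 1.16 in DN3 and 0.71 in CMP. The differences were 0.47 for DN1 from CLP (adjusted p = 0.516 by limma) and -1.05 for DN2 from DN1 (adjusted p = 0.138). With only the populations compared in the fit, both passed (adjusted p = 0.0351 and 0.0272). From DN2 to DN3 Hhex fell by 8.13 (adjusted p = 5.26e-12), and it fell by 8.77 without DN3 replicate 3, the 1 array of the 3 that was not near the floor.

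Ldb1, the cofactor shared with many LIM-domain proteins, went the other way. It was at 8.90, 8.51 and 8.69 on the CLP arrays, 8.41, 6.78 and 7.99 on DN1, 7.24, 7.61 and 7.32 on DN2, and 9.05, 8.96 and 9.87 on DN3. DN1 was scattered and overlapped DN2, while all DN3 arrays exceeded all DN1 and DN2 arrays. DN1 differed from CLP by -0.97 (SE 0.40, adjusted p = 0.0936 by limma), a fall that passed without DN1 replicate 1 (-1.32, adjusted p = 0.0299). It also passed among probe sets that were not dim (adjusted p = 0.0399). Without the 4 DN1 and DN2 arrays with Xist signal it was -1.92 (adjusted p = 0.013), but this fit holds 1 DN1 array, replicate 2, the lowest of the 3 for Ldb1, and assumes that it varies like the other populations. DN2 differed from DN1 by -0.34 (adjusted p = 0.927), and the sign turned without DN1 replicate 1 (0.01). From DN2 to DN3 Ldb1 rose by 1.90 (SE 0.40, adjusted p = 0.00125), or 3.74-fold, and DN3 exceeded DN1 by 1.57 (adjusted p = 0.00597; 0.192 with only those populations in the fit).

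The moment of loss was tested within each gene by comparing successive steps in the same fit. The change from DN2 to DN3 was more negative than that from DN1 to DN2 by 5.11 in Tal1 (the contrast is -5.11, SE 0.32, adjusted p = 1.77e-09 by limma). The same contrast was -7.30 in Lyl1 (SE 0.51, adjusted p = 8.34e-09) and -7.08 in Hhex (SE 0.66, adjusted p = 3.31e-07). For Lmo2 it was -0.77 (SE 0.37, adjusted p = 0.199). With DN2 at 7.57 and the floor at 2.17, the second step of Lmo2 could not exceed 5.40 and its contrast could not go below -1.32, so this value does not show that its late steps were alike. The floor also limits the contrasts of Tal1, Lyl1 and Hhex, which could not go below -5.53, -7.80 and -8.09. These 3 of 5 genes compare with 7.07% of all probe sets with a more negative second step and 6.89% with a more positive one. Ldb1 was among the latter (2.24, adjusted p = 0.0352), a call lost in 9 of 19 alternatives, among them every fit that left out 1 DN2 array (adjusted p = 0.107, 0.0564 and 0.104 without replicates 1, 2 and 3). It was also lost without DN1 replicate 1 (0.0771), DN1 replicate 3 (0.0709) or DN3 replicate 3 (0.0704).

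The step from DN1 to DN2, set against that from CLP to DN1, was called in Lmo2 alone of the 5, with a contrast of -3.01 (SE 0.37, adjusted p = 2.09e-05 by limma). Over all probe sets 6.29% were more negative and 6.95% more positive in this contrast. It was -0.32 in Tal1 (adjusted p = 0.694), 0.94 in Lyl1 (0.294), -1.52 in Hhex (0.15) and 0.64 in Ldb1 (0.746). Whether 1 gene fell earlier than another was not tested across genes.

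**Figure D2:**
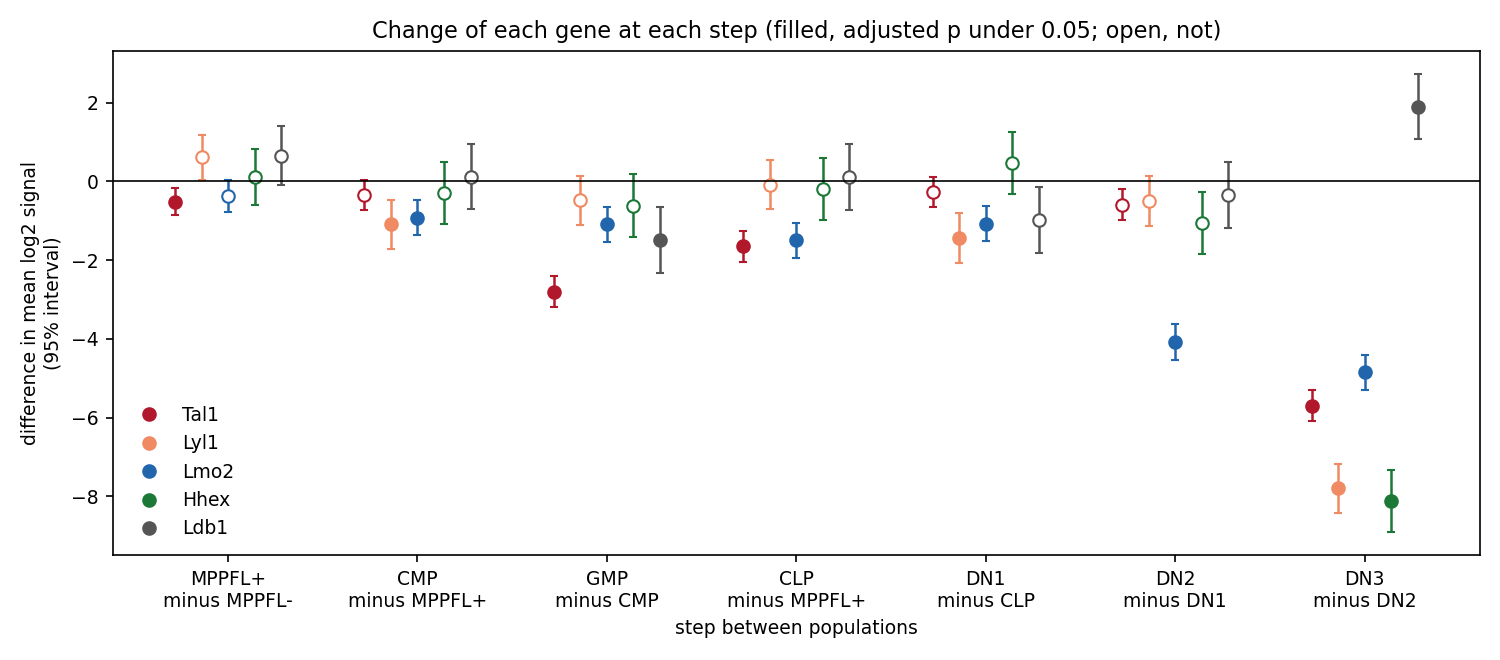
Difference in mean log2 signal (y axis, with 95% intervals from the fit) of each gene at 7 steps between populations (x axis), filled where the adjusted p was under 0.05. Lmo2 alone is filled at DN2 minus DN1 (-4.08), and at DN3 minus DN2 Tal1, Lyl1, Lmo2 and Hhex lie between -4.85 and -8.13 with Ldb1 at 1.90.

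Reference sequence is shown for the start of 3 of the 4 genes that were low in DN3, because members that fell together may be compared in the stretch just before transcription begins. RefSeq sequence of GRCm38.p6 was found for 4 of the 5 genes, and stretches that lie before the annotated gene start were taken for 3, on the plus strand. They are chr4:115056176-115056425 for Tal1, chr8:84701207-84701422 for Lyl1 and chr19:37434591-37434840 for Hhex. Capitals mark the letters of 3 motifs searched on both strands, CANNTG (the E-box core bound by helix-loop-helix pairs), GATAA (the core of sites for the Gata family) and GGAAG (the core of sites for the Ets family).
Tal1: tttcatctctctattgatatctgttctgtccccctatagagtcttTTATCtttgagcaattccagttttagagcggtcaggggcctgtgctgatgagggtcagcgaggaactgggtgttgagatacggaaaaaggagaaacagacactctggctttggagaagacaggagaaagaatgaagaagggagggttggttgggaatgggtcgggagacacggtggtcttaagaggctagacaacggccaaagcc
Lyl1: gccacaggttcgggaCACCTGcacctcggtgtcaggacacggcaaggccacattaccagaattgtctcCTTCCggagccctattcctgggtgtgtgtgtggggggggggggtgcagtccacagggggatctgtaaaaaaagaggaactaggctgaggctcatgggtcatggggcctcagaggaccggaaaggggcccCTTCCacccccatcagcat
Hhex: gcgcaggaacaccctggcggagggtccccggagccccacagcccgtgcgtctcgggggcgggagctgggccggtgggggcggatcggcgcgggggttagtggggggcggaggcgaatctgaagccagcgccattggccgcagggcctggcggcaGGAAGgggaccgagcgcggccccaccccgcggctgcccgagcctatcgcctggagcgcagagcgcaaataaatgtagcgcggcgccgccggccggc
The Tal1 stretch held 1 GATAA, 0 CANNTG and 0 GGAAG. That of Lyl1 held 1 CANNTG, 2 GGAAG and 0 GATAA, and that of Hhex held 1 GGAAG and none of the others. Of 32851 RefSeq promoters, 22.6% held GATAA, 66.2% CANNTG and 64.1% GGAAG in 250 bases, and in the 216 bases used for Lyl1 the shares were 20.3%, 61.6% and 57.9%. The GC content was 48.8% in Tal1, 60.6% in Lyl1 and 76% in Hhex. No motif was common to the 3 stretches, and a match is a description of letters only.

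In bone marrow the mean was highest in MPPFL- for Tal1 and Lmo2, in MPPFL+ for Lyl1 and Hhex, and in CMP for Ldb1. The highest mean differed from the next, by the test, only in Tal1. Tal1 was at 10.89 to 11.50 (median 11.40) in MPPFL-, 10.82, 10.96 and 10.64 in MPPFL+, 10.44, 10.34 and 10.61 in CMP, and 7.84, 7.45 and 7.70 in GMP. Only MPPFL- and MPPFL+ overlapped among these neighbours. Tal1 fell by 2.80 from CMP to GMP (SE 0.19, adjusted p = 1.82e-09 by limma), which is 6.94-fold, and by 1.65 from MPPFL+ to CLP (SE 0.19, adjusted p = 6.19e-06). CMP differed from MPPFL+ by -0.34 (95% interval -0.73 to 0.05, adjusted p = 0.241). The fall of 0.51 from MPPFL- to MPPFL+ (adjusted p = 0.0426) was lost in 7 of the 8 fits that left out 1 array of these populations, with adjusted p from 0.064 to 0.165. Beside the fall from CMP to GMP stand red cell, platelet and mast cell markers, which in CMP had summed log2 signals of 24.08 to 28.16 (4 erythroid genes, of which Epor and Hba-a1 were near the lowest value), 32.60 to 34.75 (3 megakaryocyte genes) and 29.24 to 31.98 (3 mast cell genes). In GMP they were 12.37 to 12.61, 18.47 to 19.09 and 29.12 to 30.67, so that the mast cell sums, unlike the others, overlapped between CMP and GMP. Their part in the fall of Tal1 was not tested.

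Lyl1 was higher in CLP than in GMP. It was at 11.66 to 12.03 (median 11.90) in MPPFL-, 12.27, 12.57 and 12.60 in MPPFL+, 11.80, 10.68 and 11.71 in CMP, and 11.13, 10.89 and 10.73 in GMP. CLP arrays lay within the range of MPPFL+ (difference -0.09, 95% interval -0.71 to 0.54, adjusted p = 1 by limma) and above all GMP arrays, by 1.48 (SE 0.30, adjusted p = 0.000958). Lyl1 fell by 1.08 from MPPFL+ to CMP (adjusted p = 0.0158). That call was lost without CMP replicate 2 (-0.72, adjusted p = 0.0807), MPPFL+ replicate 2 (-1.04, 0.0529) or MPPFL+ replicate 3 (-1.02, 0.0524), after quantile normalization (0.0593) and with only those populations in the fit (0.27). GMP differed from CMP by -0.48 (adjusted p = 0.324), and fell by 0.84 without CMP replicate 2 (adjusted p = 0.0394).

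Lmo2 was lowered on both branches. It was at 14.53 to 14.69 (median 14.55) in MPPFL-, 14.22, 14.23 and 14.19 in MPPFL+, 12.60, 13.45 and 13.84 in CMP, and 12.18, 12.24 and 12.20 in GMP. No 2 of these populations overlapped, although CMP spread widely, with replicate 1 the lowest. Lmo2 fell by 0.92 from MPPFL+ to CMP (adjusted p = 0.005 by limma), by 1.09 from CMP to GMP (adjusted p = 0.00116) and by 1.49 from MPPFL+ to CLP (adjusted p = 0.000113). Both falls that involve CMP were lost with only those populations in the fit (adjusted p = 0.343 and 0.204). MPPFL+ differed from MPPFL- by -0.37 (95% interval -0.77 to 0.03, adjusted p = 0.254), which passed with only those populations in the fit (0.00284).

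Hhex was nearly level through the marrow. It was at 11.86 to 12.16 (median 11.94) in MPPFL-, 12.31, 12.23 and 11.73 in MPPFL+, 10.99, 12.27 and 12.13 in CMP, and 11.16, 11.14 and 11.23 in GMP. CMP replicate 1 was the lowest array of the marrow. None of its differences at the 4 marrow steps passed. GMP differed from CMP by -0.62 (95% interval -1.42 to 0.18, adjusted p = 0.315 by limma). GMP lay below CLP on all arrays (CLP minus GMP 0.73, adjusted p = 0.227; 0.00242 with only those populations in the fit).

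Ldb1 was lower in GMP than in CMP and CLP. It was at 7.84 to 8.04 (median 7.97) in MPPFL-, 8.79, 8.78 and 8.20 in MPPFL+, 7.57, 9.15 and 9.43 in CMP, and 7.34, 7.26 and 7.07 in GMP. All CMP arrays exceeded all GMP arrays, with CMP replicate 1 the closest. Ldb1 fell by 1.50 from CMP to GMP (SE 0.40, adjusted p = 0.0131 by limma), a call lost without CMP replicate 3 (-1.14, adjusted p = 0.0663) or with only those populations in the fit (0.274). CLP exceeded GMP by 1.48 (adjusted p = 0.0101).

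Counted together at the marrow steps, 1 of 5 genes fell and 0 rose from MPPFL- to MPPFL+, against 7.44% of all probe sets lower and 7.56% higher. From MPPFL+ to CMP 2 fell and 0 rose, against 11.1% and 4.90%. These last shares depended on the scaling, being 8.33% and 7.28% after quantile normalization and 9.96% and 47% with array medians set equal, where the median of all probe sets was shifted by 0.26. From CMP to GMP 3 fell and 0 rose, against 6.29% and 9.86%. From MPPFL+ to CLP 2 fell and 0 rose, against 2.39% and 1.73%. Among probe sets that were not dim, 35.6% were called in either direction from MPPFL+ to CMP and 8.71% from MPPFL+ to CLP. The shares of the other marrow comparisons were likewise larger without dim probe sets. Between the branches, CLP was higher than GMP in 3 and lower in 0, against 11.3% of all probe sets higher and 9.42% lower. With array medians set equal these were 10.1% and 40.3%, with the median of all probe sets at -0.21, and 9206 of the 22719 called sat at the lowest deposited value on all arrays of both populations (10137 of 25643 for CMP against MPPFL+). The spike-in mean was 9.01 in CMP and 7.39 in GMP against 4.22 in MPPFL+ and 4.17 in CLP. The mean 3' minus 5' control difference was 2.26, 1.72, 2.90 and 3.01 in the same order. Arrays did not overlap in either measure between CMP and MPPFL+, between CMP and GMP, or between GMP and CLP. Neither measure can be told apart from population in these comparisons. Between MPPFL- and MPPFL+ the same holds for the 3' minus 5' difference (3.13 to 3.95 against 2.86 to 2.99).

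The order of the 8 means was read gene by gene, with neighbours said to differ only where their contrast was called. Tal1 ran from MPPFL- through MPPFL+, CMP, CLP, DN1, DN2 and GMP to DN3, and its neighbours differed at 4 of 7 places: MPPFL- above MPPFL+, CMP above CLP by 1.31 (adjusted p = 5.32e-05 by limma), DN2 above GMP by 0.63 (0.0143) and GMP above DN3 by at least 5.07, DN3 being near the floor (3.84e-14). Lyl1 ran MPPFL+, CLP, MPPFL-, CMP, DN1, GMP, DN2, DN3, and only the last pair differed. Lmo2 ran MPPFL-, MPPFL+, CMP, CLP, GMP, DN1, DN2, DN3 and differed at 3 places, MPPFL+ above CMP, DN1 above DN2 and DN2 above DN3. Hhex ran DN1, MPPFL+, MPPFL-, CLP, CMP, DN2, GMP, DN3, and only GMP differed from DN3, by 7.99 (adjusted p = 2.17e-12). Ldb1 ran DN3, CMP, CLP, MPPFL+, MPPFL-, DN1, DN2, GMP, and 0 of its 7 neighbouring pairs differed.

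For the pairs not among the steps above, the share of all probe sets called in either direction was 15.9% for CLP and CMP, 23.0% for CLP and MPPFL-, 24.1% for CMP and MPPFL-, 20.5% for DN1 and CMP, 28.6% for DN1 and GMP, and 20.7% for DN1 and MPPFL-. It was 23.3% for DN1 and MPPFL+, 22.5% for DN2 and CMP, 27.3% for DN2 and GMP, 24.0% for DN3 and CMP, and 30.1% for DN3 and GMP.

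Partners that occupy the same complexes moved in both directions. Of 17 measured complex partners, 8 rose and 4 fell from DN2 to DN3, with a median difference of 0.39. Over all 18193 genes 16.1% rose and 13.7% fell in this step and the median was 0.00, many genes being near the floor in both. Tcf3, an E protein that pairs with Tal1 and Lyl1, had a mean of 8.39 ± 0.63 in DN1, then 8.21 ± 0.68 in DN2 and finally 11.25 ± 0.33 in DN3 (SD, n = 3), and rose by 3.04 in the second step (adjusted p = 1.52e-06 by limma). Tcf12, another E protein, rose by 1.80 (adjusted p = 3.09e-07) and Runx1, a core blood factor, by 2.25 (adjusted p = 8.13e-07).

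The Gata partners did not move together. Gata2, the stem cell member, had a mean of 6.25 ± 0.54 in DN1, then 4.53 ± 0.70 in DN2 and finally 3.62 ± 0.09 in DN3 (SD, n = 3). Gata3, the T lineage member, was at 8.31 ± 0.29, 9.75 ± 0.14 and 10.96 ± 0.26. From DN1 to DN3 Gata2 fell by 2.63 (adjusted p = 1.1e-05 by limma) and Gata3 rose by 2.66 (adjusted p = 2.2e-06). Gata1, the red cell and platelet member, rose by 1.78 (adjusted p = 0.00213), from 4.20 ± 0.17 to 5.98 ± 0.60, and was named here after its values were seen. Lmo1, a relative of Lmo2 and itself a T cell oncogene, fell by 2.78 (adjusted p = 4.54e-07), from 6.92 ± 0.53 to 4.14 ± 0.39. From DN1 to DN2, when Lmo2 fell, 2 partners rose and 4 fell (median -0.04), against 3.57% and 3.79% of all genes.

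Stem and progenitor genes fell alongside. Of 11 measured, 6 fell and 1 rose from DN1 to DN2 (median -1.76), against 3.79% and 3.57% of all genes. From DN2 to DN3 10 fell and 0 rose (median -2.95), against 13.7% and 16.1%. Cd34, the surface protein of progenitors, fell by 1.97 and then fell by 8.43, a lower bound since all DN3 arrays were near the floor (adjusted p = 5.54e-05 and 7.79e-15 by limma). Hoxa9, a homeobox gene of self-renewing cells, fell by 2.12 and then fell by 5.79 (adjusted p = 4.12e-07 and 1.92e-14). Meis1, the partner of Hoxa9, fell by 4.47 and then fell by 1.74 (adjusted p = 9.14e-09 and 0.000228), and Mef2c, a factor of early lymphoid cells, by 2.01 and then by 3.57 (adjusted p = 1.29e-06 and 5.69e-11).

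T lineage genes rose over the same stages. Of 10 measured, 6 rose and 1 fell from DN1 to DN2 (median 1.62), against 3.57% and 3.79% of all genes. From DN2 to DN3 8 rose and 0 fell (median 5.67), against 16.1% and 13.7%. Bcl11b, the factor that seals T lineage commitment, rose by 8.31 from DN1 to DN2 (adjusted p = 1.15e-05 by limma), with DN1 scattered at 5.60 ± 3.23 (SD, n = 3), and differed by 0.71 from DN2 to DN3 (adjusted p = 0.858). Ptcra, the pre-T cell receptor chain, differed by 0.62 in the first of these steps (adjusted p = 0.2) and rose by 9.88 in the second (adjusted p = 2.81e-16). Cd3g, a chain of the CD3 complex, rose by 6.80 and then by 4.15 (adjusted p = 1.81e-07 and 1.71e-05), while Cd3d differed by 0.18 (SE 1.10) and then rose by 9.21 (adjusted p = 2.88e-06). The Cd3d arrays were scattered, from 2.17 to 7.33 in DN1 and from 2.27 to 7.38 in DN2, with 2 near the floor in each. In DN2, where Bcl11b and Cd3g had risen, Lmo2 had fallen by 4.08 from DN1, and the differences of Tal1, Lyl1 and Hhex had not passed the test.

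**Figure D3:**
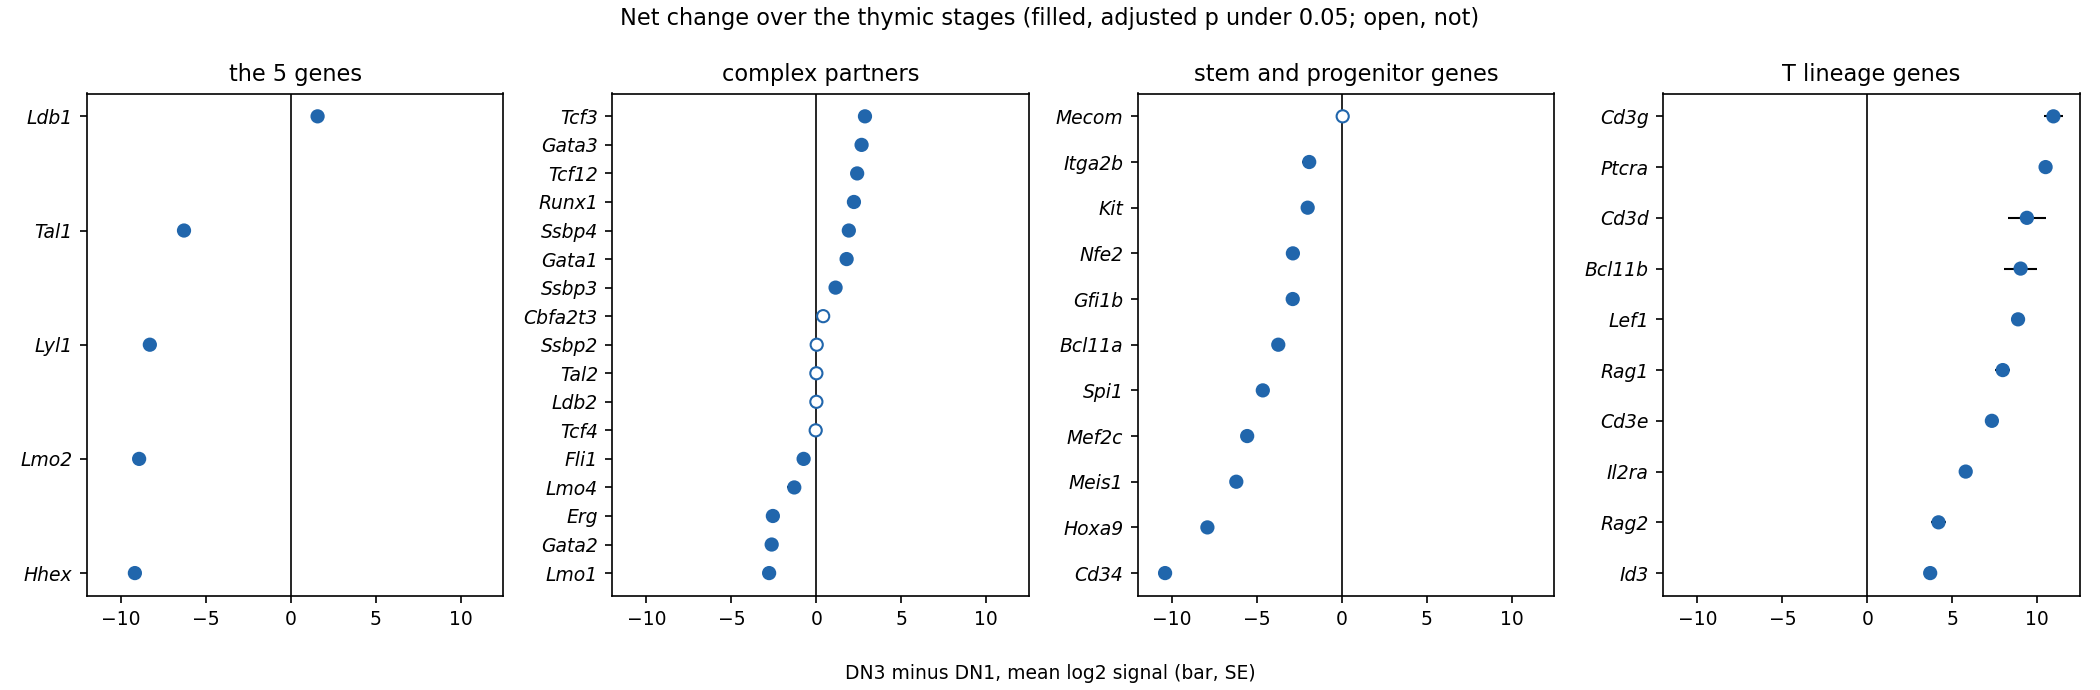
DN3 minus DN1 difference in mean log2 signal (x axis, bar SE) for the 5 genes and for genes of 3 lists (y axis), filled where the adjusted p was under 0.05. Tal1, Lyl1, Lmo2 and Hhex lie between -6.29 and -9.18 and Ldb1 at 1.57, while complex partners run from -2.78 (Lmo1) to 2.86 (Tcf3).

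Over the 8 population means, the profiles of Lyl1 and Hhex correlated at a Pearson r of 0.981, Tal1 and Lyl1 at 0.933, Tal1 and Lmo2 at 0.925, and Lmo2 and Hhex at 0.870. All points share the same arrays, and without DN3 (7 means) these values were 0.507, 0.657, 0.715 and 0.499. Ldb1 correlated with the other 4 at -0.260 to -0.544, and at 0.534 to 0.797 without DN3.

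Among 9682 candidate genes with a mean at least 4 log2 units above the lowest value in some population, those most like Tal1 over the 8 means were Ppp1r26, Rhobtb1, Car2 and Plek (r 0.970 to 0.989, and 0.892 to 0.948 without DN3). For Lmo2 they were Dip2a, Lrrfip2, Cd81 and 2810025M15Rik (0.980 to 0.986, and 0.930 to 0.952 without DN3). Lyl1 was most like Klhdc2, Cd44, Cd34 and Serpinf1 (0.990 each, and 0.765 to 0.873). Hhex was most like Serpinf1, Fuca1, Igfbp4 and Lrrk1 (0.985 to 0.991), a likeness that rested on DN3, since r was -0.088 to 0.679 without it. For Ldb1 they were 3110009E18Rik, Atg2a, Gak and Pias4 (0.960 to 0.978, and 0.936 to 0.974).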

How the data were processed

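Messenger RNA of 8 populations was measured on 26 Affymetrix arrays, and RNA was extracted with Trizol and labelled with biotin, per the labels' protocols. The table holds log2 values deposited by the authors, from 2.17 to 17.12. Normalization and summarization per probe set are not given in the sources used here. Probe sets were named from the platform annotation. All 45037 probe sets other than 64 controls were fitted with limma (version 3.58.1, R 4.3.3, lmFit and eBayes, 18 residual and 0.482 prior degrees of freedom), with population as the only term and no filter or further normalization. The fit was tested on simulated data with normal noise and no floor, which cannot speak for signals near the floor. For list genes the probe set with the highest mean was used. Members and lists were chosen with earlier results of these data known. Up to 4 genes per list with the largest DN1 to DN3 change are named, with Gata2, Gata3, Runx1, Tcf3 and Tcf12 in any case, and for each member the 4 genes of highest correlation. Alternatives were other normalizations, filters, probe set rules and variance models, fits to the populations compared, a replicate block, a 3' to 5' covariate, and leaving out arrays. The number of arrays limits precision.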

Additional observations from a re-analysis of the deposited data

How the results depend on the processing

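The falls of Tal1, Lyl1, Lmo2 and Hhex from DN2 to DN3, from DN1 to DN3 and from CLP to DN3, and that of Lmo2 from DN1 to DN2, kept their direction and their call in all 16 alternatives run for each. So did the timing contrasts of Tal1, Lyl1 and Hhex in 19. Counts of called genes moved as follows, and the cause was not tested. With only the populations compared in the fit they were 3 for MPPFL+ against MPPFL-, 0 for CMP against MPPFL+, 1 for GMP against CMP, 5 for CLP against GMP and 2 for DN2 against DN1. In the same order, 14.1%, 2.72%, 5.69%, 21.6% and 0.659% of all probe sets were called in these fits. The shares were 15%, 16%, 16.2%, 20.8% and 5.48% in the fit of all populations. Quantile normalization left 1 for CMP against MPPFL+. For MPPFL+ against MPPFL- the count was 0 with the 3' minus 5' covariate and 0 with the replicate block. Leaving out 1 array gave 0 to 1 for MPPFL+ against MPPFL-, 1 to 2 for CMP against MPPFL+, 1 to 2 for DN2 against DN1, 2 to 4 for GMP against CMP and 2 to 3 for DN1 against CLP. Of all probe sets, 9.79% to 16% were called in the fits with 0 for MPPFL+ against MPPFL-. The share was 13.2% to 21.3% in those with 1 for CMP against MPPFL+. It was 5.42% without DN1 replicate 2, which gave 2 for DN2 against DN1. The timing contrast of Ldb1 was 2.24 with only the populations compared (adjusted p = 0.194 by limma), 2.24 with the replicate block (0.076), 1.59 without the DN1 and DN2 arrays with Xist signal (0.586), which leaves 1 DN1 and 1 DN2 array assumed to vary like the other populations, and 1.90 to 2.71 without 1 array. Signs turned only in differences that were not called. With the 3' minus 5' covariate Hhex was at -0.09 for MPPFL+ against MPPFL- and Ldb1 at -0.17 for CMP against MPPFL+. Without the Xist arrays Ldb1 was at 0.46 for DN2 against DN1, with 1 array on each side. Without 1 array Ldb1 ran from -0.23 to 0.70 for CMP against MPPFL+, from -0.09 to 0.21 for CLP against MPPFL+ and from -0.81 to 0.01 for DN2 against DN1, and Hhex from -0.53 to 0.11 for CMP against MPPFL+. Of 84 pairs of arrays with the same replicate number, 9 had deviations from their population means that correlated above 0.1 (range -0.40 to 0.40), so the numbers were not taken as pairing.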
